A study of Mus musculus with 16 samples.

Results

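The genes described here are 28 genes of cholesterol synthesis and of its control by SREBP-2, picked by symbol from a table of 48432 mouse genes, and all 28 were found in it. Their products make sterols from acetyl-CoA, process the transcription factor SREBP-2, or move sterols and limit the uptake of lipoproteins. RNA was sequenced from peritoneal macrophages (PM), cells that had been collected 5 days after an injection of 3% thioglycolate and then kept with oxidized LDL (oxLDL) at 50 μg/ml for 48 h, which loads them with sterol and turns them into foam cells. The groups were LDAH-Tg PM (genotype label "LDAH overexpression"), their WT controls ("LDAH ApoE control"), LDAH-KO PM ("LDAH KO") and their own WT controls ("LDAH WT"), with 4 samples each and the strain label C57BL/6J throughout. LDAH, the lipid droplet-associated hydrolase, was overexpressed in LDAH-Tg mice from a *Csf1r* promoter and intron active in myeloid cells, in a line started on a B6D2F1 background and then crossed to C57BL/6. In LDAH-KO mice a cassette took the place of early coding exons. The labels give no age, and the *Apoe* genotype of the mice behind these libraries was not given in the sources used here. The study bred both lines also without *Apoe*. *Apoe* RNA was abundant in every group, at 7947 TPM (transcripts per 1000000) in LDAH-Tg PM against 8775 TPM in WT, and at 10404 TPM in LDAH-KO PM against 9565 TPM in WT. An RNA level alone cannot settle the genotype. *Ldah* itself had 124 TPM in LDAH-Tg PM against 28.5 TPM in their controls, and 27.9 TPM in LDAH-KO PM against 44.5 TPM in theirs. The paper reports complete knockout by PCR and western blotting, so the TPM of *Ldah* in LDAH-KO PM do not measure remaining protein.

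Cells make cholesterol from acetyl-CoA through mevalonate, isoprenoid diphosphates, squalene and lanosterol. When sterols in the endoplasmic reticulum (ER) are scarce, SCAP carries the SREBP-2 precursor to the Golgi, where proteases free its active domain, which switches on nearly every enzyme of the route. When sterols are plentiful, INSIG proteins hold SCAP in the ER and the genes are turned down. Oxysterols act through INSIG, and they also activate the LXR receptors, which in turn induce *Mylip*, a ubiquitin ligase that limits lipoprotein uptake.

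The table holds the authors' mean TPM of each group and no value per sample. Therefore differences below come without SD, p-value or check between replicates, the depth is unknown, and "higher" and "lower" state only the order of 2 means. A value from a whole culture also cannot tell fewer cells of a type from less RNA per cell. Ratios are given on the log2 scale after adding 0.5 TPM to each mean, for genes that averaged 1 TPM or more over the groups compared and were at 0 in none. TPM corrects for transcript length, so levels of different genes can be set side by side.

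Promoter sequences of 24 of the 28 genes were found in the RefSeq table for GRCm38.p6, which covers 250 bases before and 50 after each transcript start. *Sqle*, *Fdft1*, *Fdps* and *Stard4* had no entry there, so their promoters were not searched. The letters of the sterol regulatory element (SRE), TCACNCCAC, were searched on both strands, and so were CCAAT, the box bound by NF-Y, and GGGCGG, a box bound by Sp1, both known partners of SREBP. *Hmgcs1* was the only gene of the 24 whose promoter held the SRE letters (4.17%, against 1.44% of 27025 genes in the table). With the looser letters TCACNCNAC, *Nsdhl* was added (8.33%, against 3.15% of all genes). Counting every transcript start in the table, the NF-Y box stood in 20 of the 24 (83.3%), against 41.1% of all genes and 42.8% of the 8446 genes that could be matched among those compared between LDAH-Tg PM and their controls. The Sp1 box stood in 21 of the 24 (87.5%), against 38.2% of all genes and 69.8% of those 8446. A match is a description of the letters and not of a bound site. The 250 bases before the start of 5 genes are shown from 5′ to 3′ in the direction of the gene, with the SRE and the NF-Y boxes in capitals on either strand (ATTGG is CCAAT read on the other strand). *Hmgcs1* was chosen for its SRE and 3 NF-Y boxes, *Sc5d* as a gene lower in both genotypes, with 1 box, *Nus1* as the most abundant gene in LDAH-KO PM, with 2, *Mbtps2* as the gene furthest down in LDAH-KO PM, with none, and *Ebp* as the most abundant gene in LDAH-Tg PM, with 2.
Hmgcs1, chr13:119690101-119690350, plus strand: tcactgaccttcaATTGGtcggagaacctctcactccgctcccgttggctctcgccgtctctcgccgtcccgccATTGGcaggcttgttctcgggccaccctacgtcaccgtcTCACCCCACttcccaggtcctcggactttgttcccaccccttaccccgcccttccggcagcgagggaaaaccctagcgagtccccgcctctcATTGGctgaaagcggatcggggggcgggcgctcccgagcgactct
Sc5d, chr9:42264301-42264550, minus strand: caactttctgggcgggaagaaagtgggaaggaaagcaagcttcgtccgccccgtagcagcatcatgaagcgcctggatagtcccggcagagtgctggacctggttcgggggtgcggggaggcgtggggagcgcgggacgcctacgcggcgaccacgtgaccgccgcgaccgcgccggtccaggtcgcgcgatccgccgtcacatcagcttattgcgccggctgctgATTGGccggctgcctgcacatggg
Nus1, chr10:52417297-52417546, plus strand: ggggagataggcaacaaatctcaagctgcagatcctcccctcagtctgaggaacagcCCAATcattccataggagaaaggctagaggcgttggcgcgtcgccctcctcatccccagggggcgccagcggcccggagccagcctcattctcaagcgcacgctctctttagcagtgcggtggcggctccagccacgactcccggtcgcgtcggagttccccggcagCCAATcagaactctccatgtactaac
Mbtps2, chrX:157598716-157598965, minus strand: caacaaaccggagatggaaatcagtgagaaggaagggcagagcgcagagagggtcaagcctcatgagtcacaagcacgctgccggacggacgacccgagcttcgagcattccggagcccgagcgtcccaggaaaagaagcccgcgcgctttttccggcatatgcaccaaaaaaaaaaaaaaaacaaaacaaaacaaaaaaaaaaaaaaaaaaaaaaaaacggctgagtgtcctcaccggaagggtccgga
Ebp, chrX:8193513-8193762, minus strand: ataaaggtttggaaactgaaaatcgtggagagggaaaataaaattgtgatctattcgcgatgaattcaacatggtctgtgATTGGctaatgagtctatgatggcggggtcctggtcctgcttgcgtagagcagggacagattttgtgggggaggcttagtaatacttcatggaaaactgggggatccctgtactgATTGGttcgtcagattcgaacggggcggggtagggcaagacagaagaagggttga

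**Figure D1:**
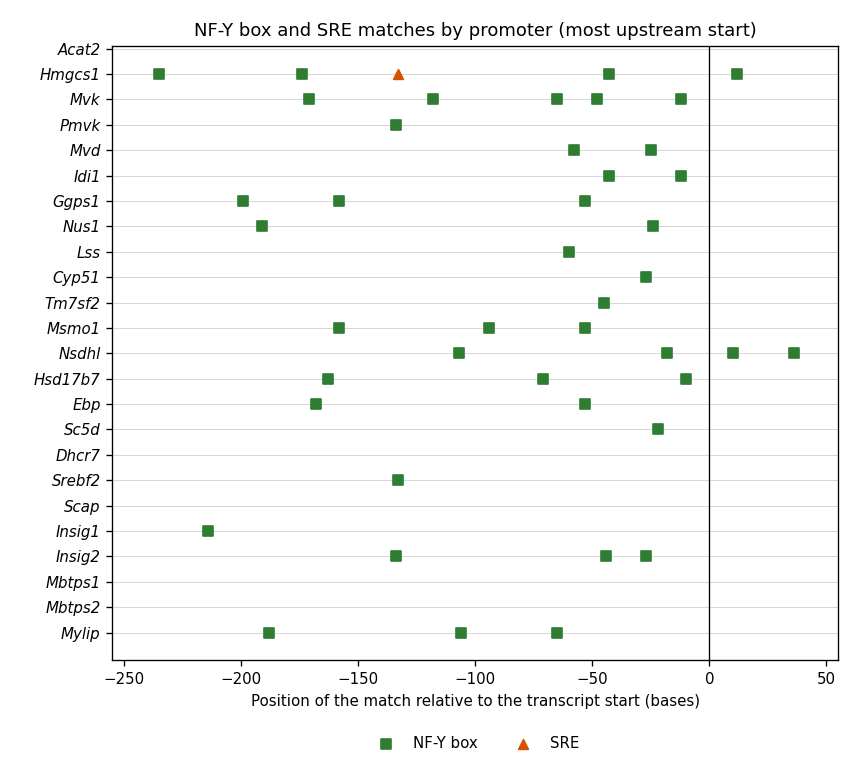
Positions of the NF-Y box (squares) and of the SRE letters (triangle) in the promoters of the 24 genes, in bases relative to the most upstream transcript start at 0, either strand. The SRE appears on the row of Hmgcs1 alone, 137 to 129 bases before the start, and 5 rows are empty (Acat2, Dhcr7, Scap, Mbtps1 and Mbtps2, of which Dhcr7 has a box at another start), which says only that these letters are not in the window.

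The genes spanned a wide range of levels. In LDAH-Tg PM the 27 genes above 0 ran from 0.570 TPM (*Idi1*) to 93.2 TPM (*Ebp*) with a median of 12.8 TPM, and in their controls from 0.805 to 88.1 TPM with a median of 14.5 TPM. In LDAH-KO PM the range was 2.15 TPM (*Hsd17b7*) to 107 TPM (*Nus1*) with a median of 18.9 TPM, and in their controls 2.49 to 108 TPM with a median of 20.3 TPM. *Ebp*, *Nus1* and *Msmo1* were among the 4 most abundant in every group, while *Hsd17b7*, *Stard4* and *Acat2* were always near the bottom. *Fdft1*, which encodes squalene synthase, the first enzyme committed to sterols, was listed at 0 in all 4 groups. It shares a locus in the authors' table with the cathepsin gene *Ctsb*, which was also listed at 0 in all 4, so no ratio is given for it. Summed over the 28 genes, the TPM came to 546.6 in LDAH-Tg PM and 594.5 in their controls, a ratio of 0.919, and to 647.2 in LDAH-KO PM and 688.4 in theirs, a ratio of 0.94.

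**Figure D2:**
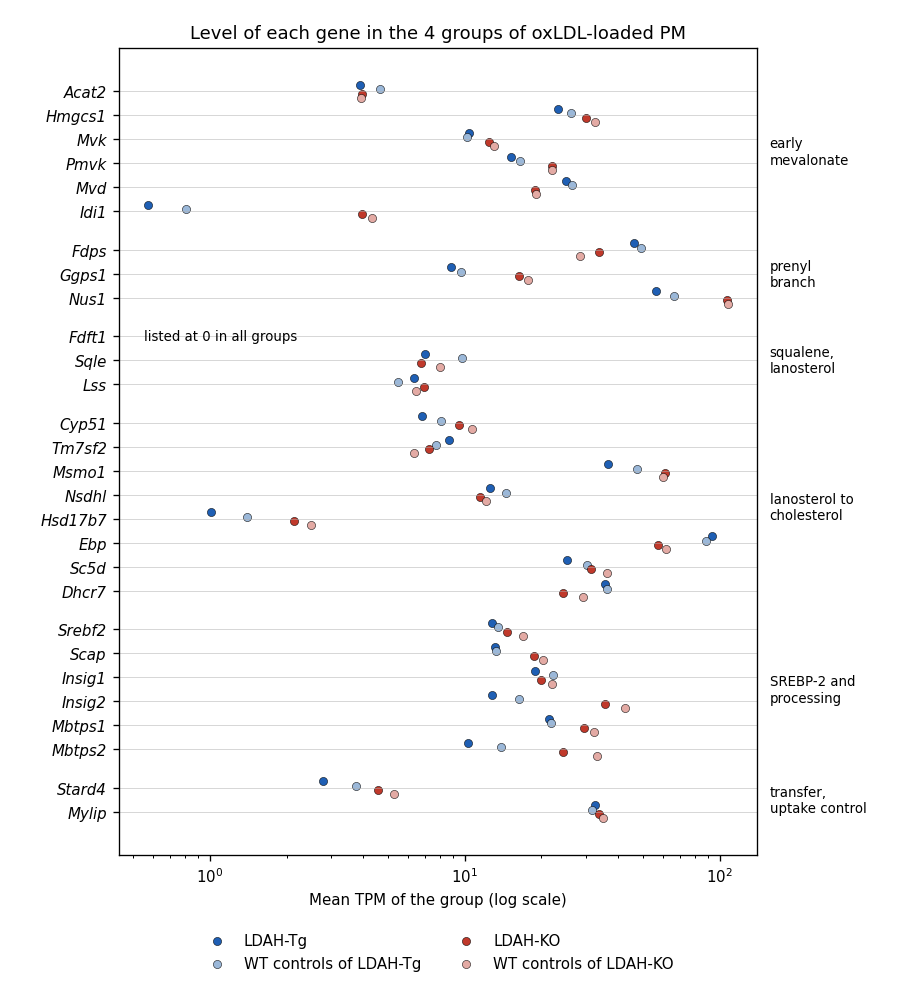
Mean TPM of each of the 28 genes (rows, grouped by role) in LDAH-Tg PM, their WT controls, LDAH-KO PM and their WT controls, on a log axis. Each point is the authors' mean of 4 samples, with no error available. The blue pairs and the red pairs lie close together for most genes, while Idi1, Insig2 and Mbtps2 separate the blue pairs from the red ones, and Fdft1 is listed at 0.

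LDAH-Tg PM had slightly lower levels of most of the pathway than their WT controls. Of the 26 genes with a ratio, 21 were lower and 5 higher by any size (80.8% lower), while 49.5% of the 11395 genes compared were lower and 50.5% higher. Their median log2 ratio was -0.15, against 0.002 over all genes, and the range ran from -0.45 (*Sqle*) to 0.19 (*Lss*). The differences were small: 0 of the 26 reached a factor of 1.5 in either direction, which 0.685% of all genes reached downward and 1.26% upward. At a factor of 1.2, 6 of the 26 were lower (23.1%, against 8.48% of all genes) and 0 were higher (against 11.2%). The 6 were *Sqle*, *Mbtps2*, *Stard4*, *Msmo1*, *Insig2* and *Hsd17b7*. These counts stayed at 6 and 0 after median-ratio scaling and after quantile normalization, counted at this factor after the data were seen. With 1 TPM added instead of 0.5, *Hsd17b7* fell short of a factor of 1.2 (-0.25).

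LDAH-KO PM showed no opposite picture. Of the 27 genes with a ratio, 21 were lower than in their WT controls and 6 higher by any size (77.8% lower), but there 66.6% of the 11289 genes compared were lower and 33.4% higher. With the groups brought to one median or to one distribution, 11 or 12 of the 27 were higher. Bringing the groups to one median sets about as many of all genes higher as lower by construction. The larger counts are therefore no sign of a rise of the pathway. Their median log2 ratio was -0.12, against -0.08 over all genes, and the range ran from -0.43 (*Mbtps2*) to 0.25 (*Fdps*). Again 0 reached a factor of 1.5 (1.83% of all genes did downward and 0.39% upward). At a factor of 1.2 *Mbtps2* alone was lower (3.7% of the 27, against 15.6% of all genes) and 0 were higher (against 3.22%). *Insig2* (-0.26) fell just short of that factor and passes it without the added 0.5 TPM.

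**Figure D3:**
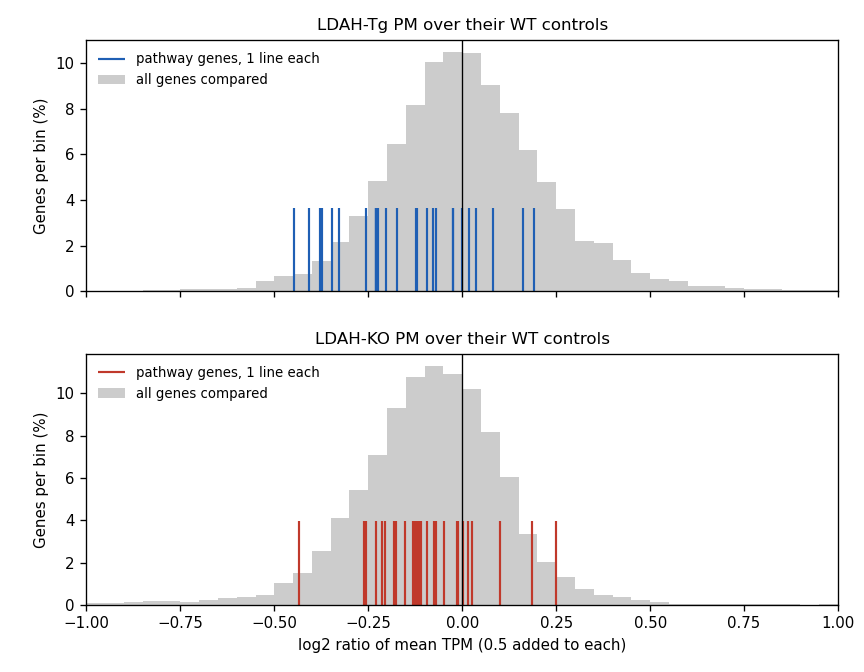
Distribution of the log2 ratios of all genes compared (grey bars, percent of genes per bin of 0.05; ratios beyond -1 and 1 are not drawn) with 1 coloured line for each pathway gene, for LDAH-Tg PM over their WT controls (top) and LDAH-KO PM over theirs (bottom). In the top panel the 26 lines lie mostly left of 0, around a median of -0.15, within a distribution centred at 0.002. In the bottom panel the 27 lines and the whole distribution both lie left of 0, around medians of -0.12 and -0.08.

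The enzymes that lead from acetyl-CoA to isopentenyl diphosphate differed little. *Acat2*, the cytosolic thiolase that joins acetyl-CoA units (not the sterol acyltransferase once given that name), had 3.89 TPM in LDAH-Tg PM against 4.65 TPM in their controls, and 3.96 TPM in LDAH-KO PM against 3.92 TPM in theirs (log2 ratios -0.23 and 0.01). *Hmgcs1*, HMG-CoA synthase, whose promoter carries the SRE shown above (chr13:119690379-119708260 in GENCODE), had 23.1 TPM in LDAH-Tg PM against 26.2 TPM, and 29.9 TPM in LDAH-KO PM against 32.5 TPM (-0.17 and -0.12). The pair of kinases that phosphorylate mevalonate lay near their controls. *Mvk* had 10.4 TPM in LDAH-Tg PM against 10.2 TPM, and 12.4 TPM in LDAH-KO PM against 13.1 TPM (0.02 and -0.07). *Pmvk* had 15.1 TPM in LDAH-Tg PM against 16.5 TPM, and 22.0 TPM in LDAH-KO PM, level with their controls at 22.0 TPM (-0.12 and 0.00). *Mvd*, the decarboxylase that ends this stretch, had 25.0 TPM in LDAH-Tg PM against 26.3 TPM, and 18.9 TPM in LDAH-KO PM against 19.0 TPM (-0.07 and -0.01). Its locus in the authors' table is shared with 188 other genes, so its level is less certain than that of the others. *Idi1*, the isomerase that makes dimethylallyl diphosphate, had only 0.570 TPM in LDAH-Tg PM against 0.805 TPM, below the minimum for a ratio, and 3.94 TPM in LDAH-KO PM against 4.31 TPM (-0.12). Over this stretch, 4 of 5 genes were lower in LDAH-Tg PM (median -0.12, with 49.5% of all genes lower). In LDAH-KO PM 4 of 6 were (median -0.04), the same share as among all genes (66.6%), whose median was -0.08.

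The branch that makes longer prenyl chains held the gene with the highest ratio in LDAH-KO PM. *Fdps*, farnesyl diphosphate synthase, at the fork between sterols and other isoprenoids, had 46.0 TPM in LDAH-Tg PM against 49.1 TPM in their controls, and 33.7 TPM in LDAH-KO PM against 28.3 TPM in theirs (-0.09 and 0.25). Its LDAH-KO ratio was at the 96.3rd percentile of all genes compared. *Ggps1*, which makes geranylgeranyl diphosphate for small GTPases, had 8.83 TPM in LDAH-Tg PM against 9.66 TPM, and 16.3 TPM in LDAH-KO PM against 17.8 TPM (-0.12 in each). *Nus1*, a subunit of the prenyltransferase that makes dolichol, had 56.5 TPM in LDAH-Tg PM against 66.4 TPM, and 107 TPM in LDAH-KO PM against 108 TPM (-0.23 and -0.01).

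*Sqle* stood lowest of the pathway in LDAH-Tg PM. It encodes squalene epoxidase, a rate-limiting step of the sterol branch (chr15:59315077-59331192, plus strand, GRCm38), and had 6.99 TPM in LDAH-Tg PM against 9.72 TPM in their controls, a log2 ratio of -0.45 at the 1.90th percentile of all genes. LDAH-KO PM held 6.75 TPM of it against 7.99 TPM, a log2 ratio of -0.23, so both genotypes were below their controls. *Lss*, the next enzyme, which closes the rings to lanosterol, was above the controls in both, with 6.33 TPM in LDAH-Tg PM against 5.48 TPM, and 6.92 TPM in LDAH-KO PM against 6.42 TPM (0.19 and 0.10).

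From lanosterol to cholesterol, 6 of 8 genes were lower in LDAH-Tg PM (median -0.22, with 49.5% of all genes lower). In LDAH-KO PM 6 of 8 were also lower, though not the same 6 (median -0.12), a share near that of all genes (66.6%). *Cyp51*, the lanosterol demethylase, had 6.82 TPM in LDAH-Tg PM against 8.08 TPM in their controls, and 9.51 TPM in LDAH-KO PM against 10.6 TPM in theirs (-0.23 and -0.15). *Tm7sf2*, a sterol reductase that works after it and whose task the lamin B receptor also performs, was higher in both, with 8.70 TPM in LDAH-Tg PM against 7.72 TPM, and 7.25 TPM in LDAH-KO PM against 6.32 TPM (0.16 and 0.19). The complex that strips the methyl groups is made of MSMO1, NSDHL and HSD17B7, and all 3 of its genes were lower in LDAH-Tg PM. *Msmo1* (chr8:64718139-64733792, minus strand) had 36.3 TPM in LDAH-Tg PM against 47.2 TPM, and 61.1 TPM in LDAH-KO PM against 60.0 TPM (-0.37 and 0.03). *Nsdhl* had 12.5 TPM in LDAH-Tg PM against 14.5 TPM, and 11.4 TPM in LDAH-KO PM against 12.1 TPM (-0.20 and -0.07). *Hsd17b7* had 1.01 TPM in LDAH-Tg PM against 1.39 TPM, and 2.15 TPM in LDAH-KO PM against 2.49 TPM (-0.33 and -0.18). At these levels the added 0.5 TPM makes its ratios smaller than those of the TPM themselves. The last enzymes showed no shared direction in LDAH-Tg PM. *Ebp*, the sterol isomerase, had 93.2 TPM in LDAH-Tg PM against 88.1 TPM, and 57.5 TPM in LDAH-KO PM against 61.4 TPM (0.08 and -0.09). *Sc5d*, the desaturase after it, had 25.1 TPM in LDAH-Tg PM against 30.1 TPM, and 31.1 TPM in LDAH-KO PM against 36.2 TPM (-0.26 and -0.21). *Dhcr7*, the reductase that yields cholesterol, had 35.5 TPM in LDAH-Tg PM against 36.1 TPM, and 24.4 TPM in LDAH-KO PM against 29.2 TPM (-0.03 and -0.25).

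The 6 genes of SREBP-2 and its processing were all lower in LDAH-Tg PM (median -0.15, with 49.5% of all genes lower) and all lower in LDAH-KO PM (median -0.17, with 66.6% lower), by amounts that ran from nearly nothing to the lowest ratios of the pathway. *Srebf2*, which encodes SREBP-2 and is its own target, had 12.8 TPM in LDAH-Tg PM against 13.6 TPM in their controls, and 14.6 TPM in LDAH-KO PM against 16.9 TPM in theirs (-0.08 and -0.21). Its escort gene *Scap* was level in LDAH-Tg PM, at 13.2 TPM in both groups, and had 18.8 TPM in LDAH-KO PM against 20.3 TPM (-0.11). The retention genes were lower in both. *Insig1*, an SREBP target that closes the feedback, had 18.9 TPM in LDAH-Tg PM against 22.1 TPM, and 19.99 TPM in LDAH-KO PM against 21.95 TPM (-0.22 and -0.13). *Insig2* (chr1:121304353-121332589, minus strand) had 12.8 TPM in LDAH-Tg PM against 16.4 TPM, and 35.5 TPM in LDAH-KO PM against 42.7 TPM (-0.35 and -0.26). The proteases that cut SREBP-2 in the Golgi differed from each other. *Mbtps1*, the site-1 protease, had 21.4 TPM in LDAH-Tg PM against 21.8 TPM, and 29.3 TPM in LDAH-KO PM against 32.1 TPM (-0.02 and -0.13). *Mbtps2*, the site-2 protease (chrX:157535371-157598715, minus strand), had 10.3 TPM in LDAH-Tg PM against 13.9 TPM, and 24.2 TPM in LDAH-KO PM against 32.9 TPM (-0.41 and -0.43). The ratios of *Mbtps2* were at the 2.47th and 4.01st percentiles of all genes. With 0.5 TPM added, it was the only gene of the pathway lower by a factor of 1.2 in both genotypes (1 of 26, 3.85%, against 1.22% of the 10858 genes with both ratios). *Insig2* fell just short in LDAH-KO PM (-0.2615, where a factor of 1.2 is 0.2630). Without the added 0.5 TPM its ratios, 0.780 and 0.832, pass that factor in both.

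Of the remaining pair, *Stard4*, a carrier of cholesterol to the ER and an SREBP-2 target, had 2.78 TPM in LDAH-Tg PM against 3.76 TPM in their controls, and 4.59 TPM in LDAH-KO PM against 5.27 TPM in theirs (-0.38 and -0.18). *Mylip*, the LXR-induced ligase, lay near its controls in both, with 32.4 TPM in LDAH-Tg PM against 31.6 TPM, and 33.7 TPM in LDAH-KO PM against 34.9 TPM (0.04 and -0.05).

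**Figure D4:**
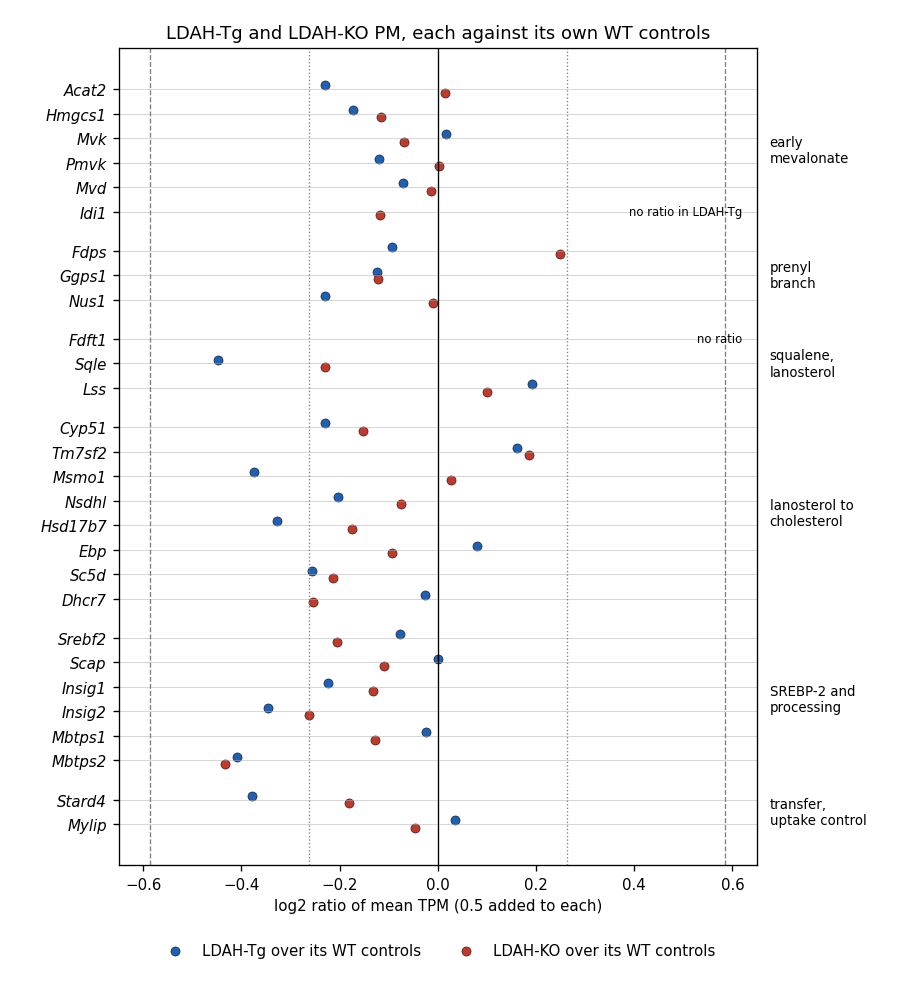
Log2 ratio of each gene (rows, grouped by role) in LDAH-Tg PM over their WT controls (blue) and in LDAH-KO PM over theirs (red), 0.5 TPM added to each mean. The solid line is no difference, the dotted lines a factor of 1.2 and the dashed lines a factor of 1.5, which no point reaches. Blue points left of the dotted line are Sqle, Mbtps2, Stard4, Msmo1, Insig2 and Hsd17b7, and the only red one there is Mbtps2.

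The comparisons of LDAH-Tg and LDAH-KO PM share no control samples, so their directions can be counted together. Of the 26 genes with both ratios, 17 were lower in both genotypes (65.4%, against 33.9% of 10858 genes), and *Lss* and *Tm7sf2* were higher in both (7.69%, against 16.7%). Opposite directions, lower in LDAH-Tg and higher in LDAH-KO PM, were found for *Acat2*, *Fdps*, *Msmo1* and *Pmvk* (15.4%, against 17.1%), and the reverse for *Ebp*, *Mvk* and *Mylip* (11.5%, against 32.3%). By the difference of the log2 ratios, LDAH-Tg minus LDAH-KO, *Msmo1* (-0.40) and *Fdps* (-0.34) were furthest apart on one side, and *Dhcr7* (0.23) and *Ebp* (0.17) on the other. No spread is available to say whether any of these differences exceeds the error of the means. The shares lower in both follow largely from the shares lower in each comparison alone. These were 80.8% and 77.8% of the pathway genes, and 49.5% and 66.6% of all genes. The joint count therefore does not show by itself that the same genes fall in both. The direction of the 17 rests partly on the LDAH-KO group, in which most genes of the genome were lower. Among the 17, *Mvd*, *Nsdhl* and *Nus1* were higher in LDAH-KO PM under at least 1 other scaling.

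Of 10 other SREBP-2 targets, 8 had a ratio. In LDAH-Tg PM 6 of the 8 were lower with a median of -0.14, where 49.5% of all genes were lower. In LDAH-KO PM 7 of the 8 were lower with a median of -0.10, near the median of all genes (-0.08), of which 66.6% were lower. *Rdh11*, a retinol dehydrogenase, had 16.4 TPM in LDAH-Tg PM against 21.3 TPM in their controls (-0.36), and *Acly*, which supplies cytosolic acetyl-CoA, had 27.4 TPM against 33.5 TPM (-0.28). *Tmem97*, a membrane protein that binds sterols, had 20.5 TPM in LDAH-Tg PM against 24.5 TPM, and 24.7 TPM in LDAH-KO PM against 25.8 TPM (-0.26 and -0.06). *Mmab*, which shares a promoter region with *Mvk* and works on cobalamin, had 6.93 TPM in LDAH-Tg PM against 6.79 TPM, and 8.52 TPM in LDAH-KO PM against 12.0 TPM (0.03 and -0.48).

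Lists of genes that act on the same proteins and products are given beside the shares of all genes lower, 49.5% for LDAH-Tg and 66.6% for LDAH-KO. Of 9 genes for the degradation of sterol enzymes at the ER, 5 were lower in LDAH-Tg PM (median -0.12) and 6 in LDAH-KO PM (median -0.03), among them the ligase genes *Rnf139* (-0.32 and -0.05) and *Syvn1* (0.13 and -0.30). Of 8 genes for the COPII coat that carries SCAP out of the ER, 7 were lower in LDAH-Tg PM (median -0.15) and 6 in LDAH-KO PM (median -0.11), the second near the share of all genes. *Sec24b*, a cargo adaptor of that coat, had 64.6 TPM in LDAH-Tg PM against 56.2 TPM, and 25.3 TPM in LDAH-KO PM against 36.0 TPM (0.20 and -0.50), while *Sar1b*, the GTPase that starts the coat, had ratios of -0.35 and 0.14. Of 13 genes that use prenyl diphosphates, 9 were lower in each comparison (69.2%), with medians of -0.04 and -0.01. That share is above the one of all genes in LDAH-Tg PM and near it in LDAH-KO PM. *Coq2* of ubiquinone synthesis was the highest in LDAH-Tg PM (0.27). Among these lists, genes that free cholesterol from the lysosome had the lowest median in LDAH-Tg PM. All 5 were lower in LDAH-Tg PM (median -0.37) and 4 of 5 in LDAH-KO PM (median -0.09). *Lipa*, the acid lipase that splits lipoprotein cholesterol esters, had 709 TPM in LDAH-Tg PM against 1007 TPM, and 1795 TPM in LDAH-KO PM against 1910 TPM (-0.51 and -0.09).

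The 2 groups of WT controls differed far more from each other than either genotype did from its own controls. The controls of LDAH-Tg were lower than the controls of LDAH-KO by a factor of at least 1.5 in 7 of 27 pathway genes and higher in 1 (25.9% and 3.7%), against 26.5% lower and 12.1% higher among 11404 genes. By a factor of 1.2, 16 of the 27 were lower and 6 higher (59.3% and 22.2%, against 44.6% and 25.1% of all genes), and by any size 18 lay below and 9 above (60.7% and 39.3% of all genes). The median of all genes was itself -0.17 on the log2 scale and that of the pathway -0.31, a difference of -0.14. *Idi1* had 0.805 TPM in the controls of LDAH-Tg against 4.31 TPM in the controls of LDAH-KO (-1.88), *Insig2* 16.4 TPM against 42.7 TPM (-1.35) and *Mbtps2* 13.9 TPM against 32.9 TPM (-1.22). *Fdps* went the other way, with 49.1 TPM in the controls of LDAH-Tg against 28.3 TPM in those of LDAH-KO (0.78), and so did *Ebp*, with 88.1 TPM against 61.4 TPM (0.52). Relative to the median of all genes, *Idi1*, *Insig2*, *Mbtps2* and *Ggps1* stayed lower by a factor of 1.5 (-1.71 to -0.67) and *Fdps*, *Ebp* and *Mvd* were higher by it (0.63 to 0.96). The line and the *Apoe* label cannot be told apart in this contrast, and each genotype was therefore set only against its own controls.

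**Figure D5:**
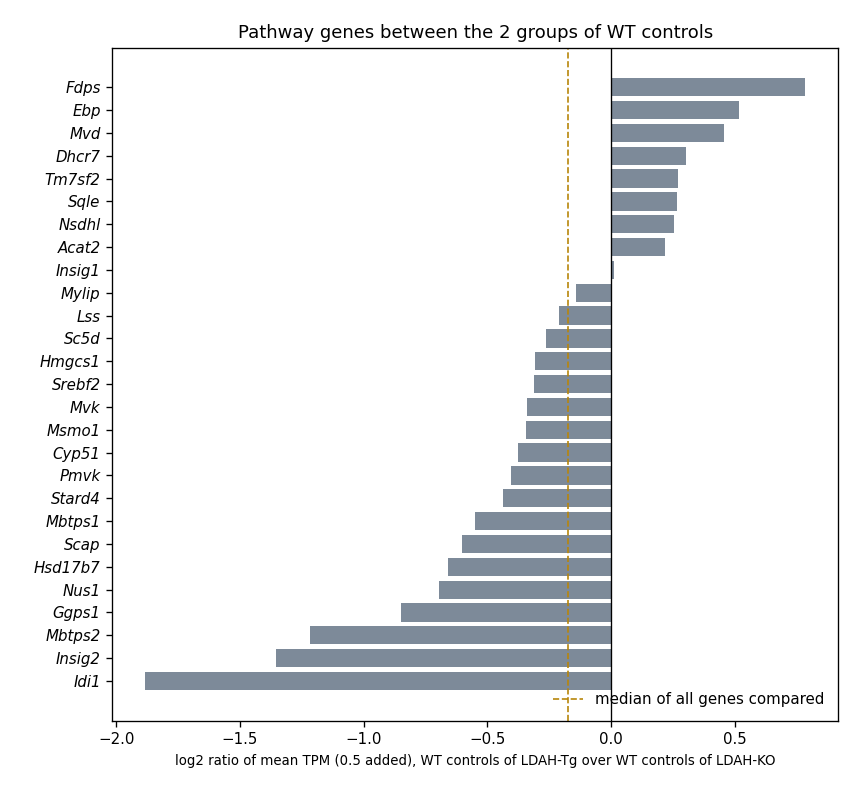
Log2 ratio of each pathway gene between the WT controls of LDAH-Tg and the WT controls of LDAH-KO, 0.5 TPM added to each mean, sorted. The dashed line is the median of all genes compared, -0.17. The bars run from -1.88 (Idi1) to 0.78 (Fdps), against -0.45 to 0.19 for LDAH-Tg and -0.43 to 0.25 for LDAH-KO PM over their own controls.

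Other values moved beside these. Of 8 macrophage markers, *Lyz2* was listed at 0 in every group but LDAH-Tg PM, and the 7 with a ratio had medians of -0.09 in LDAH-Tg PM and -0.14 in LDAH-KO PM. Among them *Cd68* was abundant in all groups, from 3023 to 4959 TPM, and *Adgre1*, which encodes F4/80, had 22.4 TPM in LDAH-Tg PM against 33.1 TPM (-0.55), and 147 TPM in LDAH-KO PM against 146 TPM. Fibroblast markers with a ratio (5 of 6) had medians of 0.04 in LDAH-Tg PM and -1.17 in LDAH-KO PM, and most of their summed TPM came from *Pdpn*. Without *Pdpn* they summed to 26.4 TPM in LDAH-Tg PM against 26.8 TPM, and to 17.8 TPM in LDAH-KO PM against 36.1 TPM. Mesothelial markers summed to 9.72 TPM in LDAH-Tg PM against 9.45 TPM, and to 6.09 TPM in LDAH-KO PM against 9.60 TPM. B cell, T cell and dendritic cell markers summed to at most 3.21 TPM per list in any group. Of the neutrophil markers only *S100a8* was abundant, with 98.8 TPM in LDAH-Tg PM against 107 TPM, and 68.2 TPM in LDAH-KO PM against 63.8 TPM. *S100a9* had 0.740 TPM in LDAH-Tg PM against 0.0474 TPM, and 0.0461 TPM in LDAH-KO PM against 0. *Cxcr2* had 0.277 TPM in LDAH-Tg PM against 0.190 TPM, and 0.262 TPM in LDAH-KO PM against 0.322 TPM. *Ly6g* was at 0 throughout, and *Retnlg* was above 0 only in LDAH-KO PM (0.0333 TPM). The part of these cell markers in the pathway's values was not tested. Of the 28 genes, 11 share a locus with an overlapping gene in the table of the authors (*Mvd*, *Fdps*, *Ggps1*, *Fdft1*, *Lss*, *Cyp51*, *Tm7sf2*, *Srebf2*, *Scap*, *Insig2* and *Mbtps2*), and whether the counting used strand is not given in the sources used here. Among the 17 that stand alone, 13 of 16 with a ratio were lower in LDAH-Tg PM (median -0.21, with 49.5% of all genes lower) and 14 of 17 in LDAH-KO PM (median -0.12, with 66.6% lower).

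By promoter letters the values did not divide cleanly, in a split that leaves out *Sqle*, *Fdft1*, *Fdps* and *Stard4*, whose promoters were not searched. Of the genes with an NF-Y box before or just after their most upstream start, 13 of 18 with a ratio were lower in LDAH-Tg PM (median -0.15) and 15 of 19 in LDAH-KO PM (median -0.09), where 49.5% and 66.6% of all genes were lower. Of the 5 without a box there, 5 were lower in LDAH-Tg PM (median -0.03) and 4 in LDAH-KO PM (median -0.13), and they include both the lowest ratio in LDAH-KO PM (*Mbtps2*) and ratios near 0 (*Scap*, *Mbtps1* and *Dhcr7* in LDAH-Tg PM).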

How the data were processed

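RNA of oxLDL-loaded PM (16 samples, 4 in each of 4 groups) was sequenced by the authors from poly(A)-selected stranded libraries as paired ends. Listed in their notes are bcl2fastq 2.17.1.14 and Trimmomatic, then the genome GRCm38 (mm10), the aligner STAR 2.4.2a and, for counting and comparison, HTSeq, DESeq2 and Cuffdiff 2.2.1. The tool behind the TPM and the annotation release are not given in the sources used here. The deposited values are the authors' mean TPM per group for 48432 genes. Each column sums to 1000000, and 1 further line, which names no gene and repeats the total, was left out. Because there is 1 mean per group, the depth is unknown, no test was made, and replicates could not be compared. Of the gene IDs, 99.2% are in GENCODE M21, which gave coordinates.

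Ratios were log2 of the means plus 0.5 TPM, with the minimum and the factors of 1.5 and 1.2 stated above. Simulated data were scored at the factor of 1.5 only, with changes larger than the pathway's in either genotype. Counts at the factor of 1.2 were therefore not tested in this way. All 28 genes are named. Of each other pathway list the rule was to name those with the 4 largest ratios, of which some are given here. Some genes of these lists are not reported here. The genes, lists and sizes were chosen with earlier results of these data known. Genes with a group at 0 (62 for LDAH-Tg, 60 for LDAH-KO, 113 between the controls) were left out. Alternatives were pseudocounts of 0.1 and 1, no minimum, a minimum of 5 TPM, median-ratio scaling, quantile normalization, protein-coding genes alone and other motif letters. Promoters came from RefSeq. Calculations ran in Python 3.11.15 (numpy 2.4.6, pandas 2.3.3, matplotlib 3.10.9).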

Additional observations from a re-analysis of the deposited data

How the results depend on the processing

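No paired analysis was possible because the table holds 1 mean per group, and leaving out each replicate could not be run for the same reason. Values without a test were counted as unmoved within 0.1 on the log2 scale. By this rule a pseudocount of 0.1 moved 1 LDAH-Tg ratio. Quantile normalization moved 14 LDAH-KO ratios and left 13 unmoved. Between the control groups, median-ratio scaling moved 27 ratios, quantile normalization moved 25, and each other pseudocount moved 2. In LDAH-Tg PM all 179 alternative ratios of the pathway genes kept their sign, and 0 genes passed a factor of 1.5 in either direction under each setting. At a factor of 1.2, 6 were lower, also with median-ratio scaling, quantile normalization or protein-coding genes alone. These last 3 combinations were added after seeing the data. Some other settings changed which genes passed. With a pseudocount of 1, *Hsd17b7* fell short (-0.25). A minimum of 5 TPM left out *Hsd17b7* and *Stard4*, and with no minimum *Idi1* also had a ratio. In LDAH-KO PM 11 of 185 alternative ratios changed sign (*Idi1*, *Mvd*, *Mvk*, *Mylip*, *Nsdhl* and *Nus1*). The number higher by any size was 11 with median-ratio scaling and 12 with quantile normalization, against 6 as deposited. At a factor of 1.2, 1 was lower as deposited and with median-ratio scaling, quantile normalization or protein-coding genes alone. At that factor 1 was higher with median-ratio scaling and 2 with quantile normalization, against 0 as deposited. Between the control groups, median-ratio scaling gave 4 lower and 3 higher by a factor of 1.5 and a median of -0.13, and quantile normalization gave 3 higher and a median of -0.084, and *Mylip* changed sign under both. The looser SRE letters were found in 2 of 24 promoters. Scaling moves these values by construction, since the medians of all genes differ. The shares of all genes after scaling are not given here, so these scaled counts stand without a background. The main limits are the missing spread and depth, transcripts listed at 0, shared loci, and ratios of both genotypes to their controls that stay below a factor of 1.5.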
